A study of Mus musculus with 12 samples.

Results

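10 genes of monoamine synthesis and transport were followed here through the purified cranial motor neurons. They were taken by name, from a list made with earlier results of these data known: *Th*, *Ddc*, *Dbh* and *Tph2* (synthesis), *Slc18a2*, *Slc6a2* and *Slc6a4* (transport), *Fev* (a transcription factor), *Htr1a* (a receptor) and *Maoa* (breakdown). All 10 were found among the 49671 genes of the files, and 8 passed the filter on low counts that left 18022 genes for testing. *Fev* and *Slc6a4* did not pass it. The 10 genes did not all rise and fall together. *Dbh* was high in cMN4 and cMN7 and near 0 in cMN3, *Th* was high in cMN4 at both ages and in cMN3 at e11.5, *Slc18a2* and *Htr1a* were highest in cMN7, and *Fev*, *Slc6a4* and *Tph2* stayed low in every library.

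The 12 libraries were bulk RNA-seq of GFP-positive cells from mouse embryos carrying the *Isl1*MN:GFP transgene, which drives GFP in motor neurons. The nuclei were the oculomotor, called cMN3, the trochlear, called cMN4, and the facial, called cMN7, each dissected at e10.5 and at e11.5 and sorted by FACS, with 2 biological replicates (A and B) in each of the 6 groups. The labels give the genotype of all libraries as WILDTYPE and name no treatment. Embryos came from C57BL/6J females crossed to *Isl1*MN:GFP males of mixed 129S1/C57BL/6J background, and their sex was not determined. Each library merged embryos of several litters, so the spread between replicates is that of pools, and the e10.5 RNA was amplified whole while the e11.5 RNA was selected with oligo-dT. Age and preparation cannot be told apart. Each library held 13991802 to 30536210 summed expected counts (median 21701475), and those of e10.5 (13991802 to 21464350) all lay below those of e11.5 (21938601 to 30536210).

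Monoamine neurons make their transmitters in short chains of enzymes. *Th* encodes tyrosine hydroxylase, which starts catecholamine synthesis, *Ddc* the decarboxylase that yields dopamine and serotonin, *Dbh* the enzyme that turns dopamine into noradrenaline, and *Tph2* the first enzyme of serotonin synthesis in neurons. *Slc18a2* (VMAT2) loads monoamines into vesicles, *Slc6a2* and *Slc6a4* return noradrenaline and serotonin into the cell, and *Maoa* oxidises them. Such neurons lie near the motor nuclei: serotonergic neurons in the raphe, noradrenergic neurons of the locus coeruleus at the front of the hindbrain and dopaminergic neurons in the ventral midbrain. Cranial motor neurons are themselves cholinergic and use *Chat* and *Slc18a3*, and they share *Phox2a* with noradrenergic neurons. Cells of 1 aminergic type might be mixed into the sorted pools. If they were the only source of their genes, at an unchanging level per cell, those genes would keep a fixed proportion between libraries. Whether the proportions were fixed is the question asked of the levels below. The conditions themselves were not tested, so the proportions describe the levels only.

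The label of the cells was first set against its markers. *Isl1*, which marks motor neurons, lay between 377 and 694 CPM (read counts scaled to the size of each library, with TMM factors) in all 12 libraries. The cells were sorted by a transgene named for this gene, so its level is not an independent check. *Slc18a3*, the vesicular acetylcholine transporter, lay between 23.2 and 120 CPM. *Chat* was at 1.65 to 2.84 CPM in cMN3 and cMN4 at e10.5 and at 16.2 and 17.4 CPM in cMN7 at e10.5. At e11.5 it lay between 6.36 and 22.1 CPM. *Tbx20*, a factor of branchial motor neurons, was at 1590 and 1520 CPM in cMN7 at e10.5 and at 597 and 776 CPM in cMN7 at e11.5, against 0.317 to 24.6 CPM in the other libraries. Several libraries stood apart in other ways. Genes of ribosomal RNA sequence (4 loci) took 8.86 to 30.2% of the counts in the earlier libraries, against 0.0508 to 0.571% in the later. Among 7 neural crest and glial markers, the summed level was 122 CPM in cMN4 e11.5 replicate B and 32.5 CPM in replicate A. *Fabp7* (83 CPM) and *Ednrb* (28.9 CPM) carried the sum in replicate B, where *Sox10*, *Foxd3* and *Erbb3* were at 0.0537, 0.0268 and 0.402 CPM. The progenitor gene *Sox2* was at 33.5 CPM in that library and 8.23 CPM in replicate A. These 6 genes were named after their values were seen. The replicates of cMN7 at e11.5 differed most (SD of the log2 ratio 0.542, against 0.254 to 0.471 in the other groups). In bulk libraries, fewer expressing cells and less RNA per cell cannot be told apart.

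**Figure D1:**
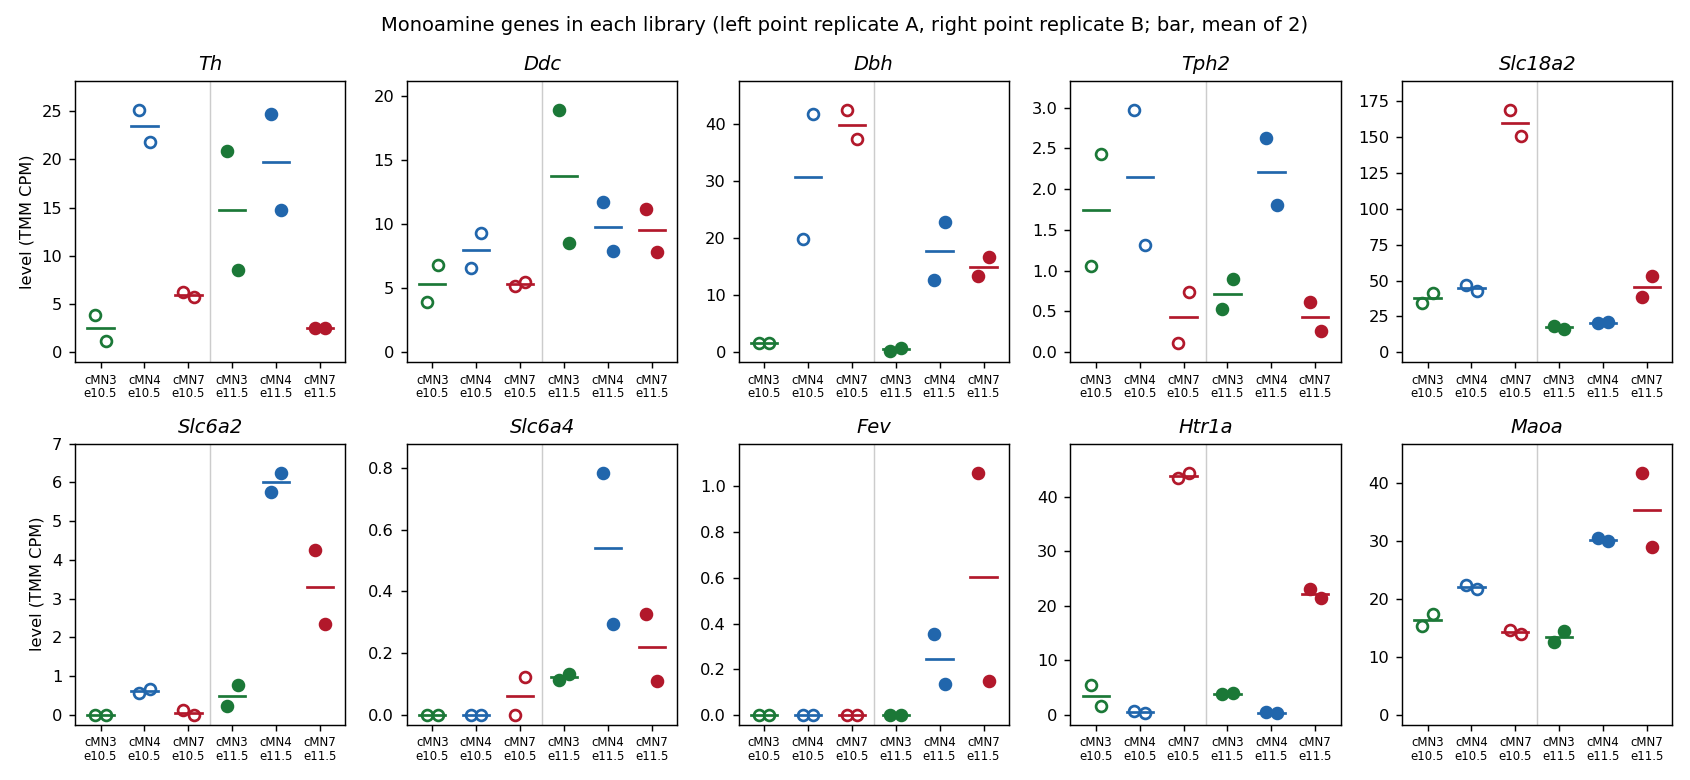
Level of each of the 10 genes (TMM-scaled CPM, vertical axis starting just below 0, scaled per gene) in the 6 groups on the horizontal axis, e10.5 in open and e11.5 in filled points; each point is 1 library and each bar the mean of 2. The groups that are high differ from gene to gene: cMN7 for Slc18a2 and Htr1a, cMN4 and cMN7 for Dbh, cMN4 and e11.5 cMN3 for Th.

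Among the catecholamine enzymes, *Dbh* (ENSMUSG00000000889, chr2:27165233-27183200, plus strand, GRCm38) showed the widest range. At e10.5 it was at 1.58 and 1.56 CPM in cMN3, at 19.8 and 41.7 CPM in cMN4 and at 42.4 and 37.3 CPM in cMN7. At e11.5 it was at 0.15 and 0.803 CPM in cMN3, 12.7 and 22.8 CPM in cMN4 and 13.3 and 16.7 CPM in cMN7. The cMN3 libraries lay below all others at each age, and the cMN4 and cMN7 libraries overlapped. *Dbh* was lower in cMN3 than in cMN4 at e10.5 (log2 fold change -4.28 ± 0.54 SE, edgeR adjusted p = 0.00135) and at e11.5 (-5.17 ± 0.58, edgeR adjusted p = 0.000586). Both calls held in every alternative run. With cMN3 and cMN4 averaged, it was also lower than in cMN7 (-2.52 ± 0.39 at e10.5 and -2.34 ± 0.40 at e11.5, edgeR adjusted p = 0.0015 and 0.00425). That average hides the split between its nuclei: with cMN4 alone against cMN7 the values were -0.38 (edgeR adjusted p = 0.736) and 0.24 (edgeR adjusted p = 0.914).

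*Th* (ENSMUSG00000000214, chr7:142892752-142931128, minus strand) followed another order. At e10.5 its levels were 3.85 and 1.13 CPM in cMN3, 25.1 and 21.8 CPM in cMN4 and 6.25 and 5.68 CPM in cMN7. At e11.5 they were 20.9 and 8.56 CPM in cMN3, 24.7 and 14.7 CPM in cMN4 and 2.54 and 2.53 CPM in cMN7. In cMN4 the gene was thus high at both ages, in cMN3 the libraries of the later age lay above those of the earlier, and in cMN7 they lay below. *Th* was lower in cMN3 than in cMN4 at e10.5 (log2 fold change -3.18 ± 0.54, edgeR adjusted p = 0.00642), and this call held in every alternative run, while at e11.5 these groups overlapped. Averaged over cMN3 and cMN4, it was higher than in cMN7 at e11.5 (2.74 ± 0.49, edgeR adjusted p = 0.00521) and over both ages (1.56 ± 0.33, edgeR adjusted p = 0.00834). The first of these calls was lost without cMN7 e11.5 replicate A (2.74, edgeR adjusted p = 0.0616) and the second without cMN7 e10.5 replicate B (1.53, edgeR adjusted p = 0.0557). The second was also lost with cMN3 alone against cMN7 (0.67, edgeR adjusted p = 0.298) and with limma on TPM (adjusted p = 0.0515 and 0.122). The change of this difference with age was 2.36 ± 0.62 on the log2 scale, which did not pass the test (edgeR adjusted p = 0.125) but did so with same-lettered replicates of e11.5 taken as pairs (2.24, edgeR adjusted p = 0.0457).

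*Ddc* (ENSMUSG00000020182, chr11:11814101-11898144, minus strand), the enzyme shared by both chains, was present in all 12 libraries at 3.91 to 18.9 CPM. At e10.5 it was at 3.91 and 6.78 CPM in cMN3, 6.56 and 9.34 CPM in cMN4 and 5.18 and 5.5 CPM in cMN7. The later levels were 18.9 and 8.56 CPM in cMN3, 11.7 and 7.91 CPM in cMN4 and 11.2 and 7.86 CPM in cMN7. In the order of its 6 groups every neighbour overlapped the next, and no comparison between nuclei passed the edgeR test. *Ddc* was higher at e11.5 than at e10.5 (log2 fold change 0.84 ± 0.25, edgeR adjusted p = 0.0148), a call that was lost without cMN3 e11.5 replicate A (0.61, edgeR adjusted p = 0.063). Per length, the ratio of *Ddc* to *Th* in TPM (the abundance RSEM gives, corrected for length) differed between nuclei of 1 age: at e11.5 it lay between 0.544 and 0.628 in cMN4, between 1.04 and 1.16 in cMN3 and between 3.44 and 4.61 in cMN7.

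The ratio of *Dbh* to *Th* in TPM ran from 0.00515 to 4.6 over the 12 libraries, an 893-fold range. Its lowest value rested on 4 *Dbh* counts in cMN3 e11.5 replicate A, and the range spans both ages and preparations. In cMN7 it was 4.07 and 4.24 at the earlier age and 3.25 and 4.6 at the later. In cMN4 it was 0.531 and 1.28, then 0.349 and 1.08, and in cMN3 0.227 and 0.958, then 0.00515 and 0.0656. The 3 nuclei thus did not overlap in this ratio at e11.5, with *Th* far above *Dbh* in cMN3 and *Dbh* above *Th* in cMN7. Levels of the noradrenergic factor *Tfap2b* separated the same nuclei in another way. *Tfap2b* was at 34.2 and 75.4 CPM in cMN4 at e10.5 and 23.8 and 44.2 CPM at e11.5, against 1.06 to 2.2 CPM in the cMN7 libraries and 0.113 to 5.54 CPM in those of cMN3. It was lower in cMN3 than in cMN4 at both ages (log2 fold change -3.62 ± 0.82 and -4.43 ± 0.86, edgeR adjusted p = 0.0233 and 0.0217). The TPM ratio of *Dbh* to *Tfap2b* was 0.903 and 0.991 in cMN4 at e10.5, and at e11.5 it was 1.13 and 1.16. In cMN7 it was 39.1 and 40.7, then 20.7 and 21.4. In cMN3 it was 0.566 and 0.37, then 3.5 and 0.626, where the value of 3.5 rested on 4 *Dbh* and 3 *Tfap2b* counts. So *Dbh* and *Tfap2b* kept a near constant proportion within cMN4, and the *Dbh* of cMN7 was measured almost without *Tfap2b*. The part of admixed cells in these levels was not tested.

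**Figure D2:**
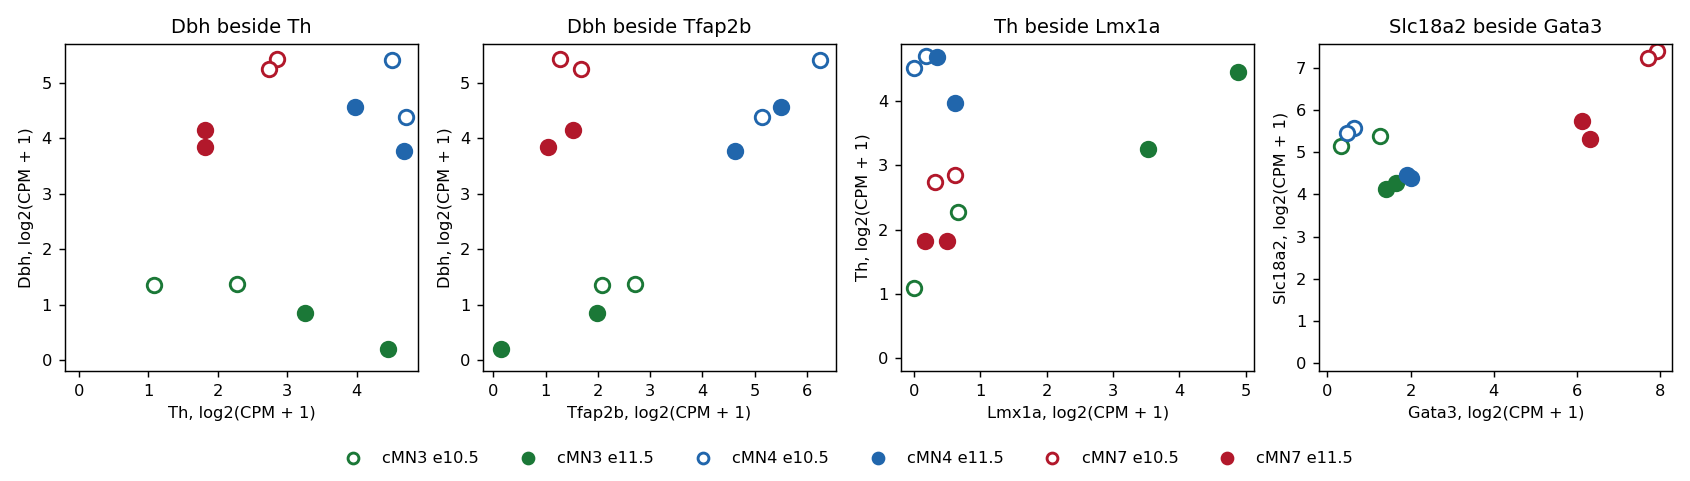
Pairs of genes in the 12 libraries, both axes log2(CPM + 1), colour for the nucleus and open or filled points for e10.5 or e11.5. Dbh is high in cMN4 with Tfap2b and in cMN7 at 1.06 to 2.2 CPM of Tfap2b, Lmx1a exceeds 20 counts only in the cMN3 libraries of e11.5, where Th is at 20.9 and 8.56 CPM, and Slc18a2 is at 38.6 to 169 CPM in cMN7, where Gata3 is at 68.4 to 241 CPM.

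Some genes of midbrain dopaminergic neurons were higher beside *Th* in the e11.5 libraries of cMN3, and others were not. *Lmx1a*, a factor that specifies these neurons, had 11 and 0 counts in cMN3 at e10.5, 761 and 314 counts in cMN3 at e11.5 and 0 to 20 counts in the cMN4 and cMN7 libraries. It was higher in cMN3 than in cMN4 at e11.5 (log2 fold change 5.54 ± 0.95, edgeR adjusted p = 0.0104). The TPM ratio of *Th* to *Lmx1a* was 1.4 and 1.56 in the cMN3 libraries of e11.5, with both genes lower in replicate B. In the other libraries that had *Lmx1a* counts this ratio lay between 12.1 and 381. *Nr4a2*, a factor of dopaminergic neurons, was at 12 and 9.91 CPM in cMN3 at e10.5 and 37.7 and 18.7 CPM at e11.5, against 4.12 and 7.08 CPM in cMN4 at e11.5. Its difference from cMN4 passed the test at e10.5 (2.13 ± 0.59, edgeR adjusted p = 0.0493) and gave 2.32 ± 0.55 (edgeR adjusted p = 0.0658) at e11.5. *Lmx1b* was also higher in the later cMN3 libraries, at 4.86 and 1.48 CPM, then 18.8 and 16.5 CPM. *Foxa1* was at 10.9 and 11 CPM, then 20.9 and 13.9 CPM, and *Foxa2* at 5.62 and 6.81 TPM, then 24.9 and 12.7 TPM. *Foxa1* and *Foxa2* were higher at the later age in cMN4 too. *Ddc*, given above, was higher in cMN3 without overlap, and *Aldh1a1* stayed at or below 0.752 CPM. Levels in cMN3 at e11.5 were lower or overlapping for *En1*, *En2* and *Drd2*. *En1* was at 64.4 and 53 CPM, then 41.4 and 27.8 CPM, *En2* at 217 and 215 CPM, then 200 and 173 CPM, and *Drd2* at 7.76 and 3.91 CPM, then 5.15 and 4.85 CPM. *Slc18a2*, also on the list, is given below. A test of the change with age within cMN3 alone is not reported here. *Slc6a3*, the dopamine transporter, had 0 counts in the 4 cMN3 libraries, which allows up to 0.0345 CPM over them, and *Pitx3* had 15 counts in cMN3 e11.5 replicate A and 0 in replicate B. Of 14 dopaminergic markers, 12 were tested, and 6 were higher and 1 lower in cMN3/4 than in cMN7 at e11.5, where 4.97% of all genes were called, among them *Th* itself and *En1* and *En2*, which mark the midbrain and front hindbrain as a region. The lower one was *Slc18a2*. The summed level of the list was 310 to 434 CPM in cMN3 and 348 to 426 CPM in cMN4 at e11.5, and 74.1 to 101 CPM in cMN7, and its part in the level of *Th* was not tested.

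The vesicular transporter *Slc18a2* (ENSMUSG00000025094, chr19:59260896-59296012, plus strand) was the most abundant of the 10 per length in cMN7 at both ages (87.2 TPM at e10.5 and 26.4 TPM at e11.5, means of 2 libraries) and in cMN3 at e10.5 (12.5 TPM). At e10.5 it was at 34.5 and 41.1 CPM in cMN3, 46.6 and 42.8 CPM in cMN4 and 169 and 151 CPM in cMN7. At e11.5 it was at 18.2 and 16.5 CPM in cMN3, 20.1 and 21.1 CPM in cMN4 and 38.6 and 52.9 CPM in cMN7. At each age the cMN7 libraries lay above all others, and every nucleus was lower at e11.5. *Slc18a2* was lower in cMN3/4 than in cMN7 at e10.5 (log2 fold change -1.96 ± 0.14, edgeR adjusted p = 5.45e-06) and at e11.5 (-1.27 ± 0.14, edgeR adjusted p = 0.000202), and lower at the later age (-1.35 ± 0.10, edgeR adjusted p = 3.01e-06). All 3 calls held in every alternative run. An antisense gene, with 1 count in all libraries together, overlaps an exon of *Slc18a2*, and whether the counting used strand is not given in the sources used here.

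*Htr1a* (ENSMUSG00000021721, chr13:105443639-105448122, plus strand), the serotonin receptor that serotonergic neurons carry as an autoreceptor, shared the high level in cMN7. At e10.5 it was at 43.4 and 44.4 CPM in cMN7, 5.44 and 1.65 CPM in cMN3 and 0.694 and 0.283 CPM in cMN4. At e11.5 it was at 23.1 and 21.4 CPM in cMN7, 3.8 and 4.05 CPM in cMN3 and 0.51 and 0.322 CPM in cMN4. The 3 nuclei did not overlap at either age. *Htr1a* was lower in cMN3/4 than in cMN7 (log2 fold change -4.99 ± 0.38 at e10.5 and -4.13 ± 0.36 at e11.5, edgeR adjusted p = 8.03e-06 and 2.61e-05), in every alternative run. It was also higher in cMN3 than in cMN4 at e10.5 (2.81 ± 0.56, edgeR adjusted p = 0.0133) and at e11.5 (3.25 ± 0.50, edgeR adjusted p = 0.00561). The e10.5 call was lost without cMN3 replicate A (1.66, edgeR adjusted p = 0.0634), without cMN4 replicate A (3.67, edgeR adjusted p = 0.0508) or without cMN4 replicate B (2.39, edgeR adjusted p = 0.0774), and the e11.5 call without cMN4 replicate B (2.93, edgeR adjusted p = 0.0745). Limma on TPM gave neither call (adjusted p from 0.137 to 0.243).

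*Slc18a2* and *Htr1a* were not accompanied by the other serotonergic genes. *Tph2* (ENSMUSG00000006764, chr10:115078641-115185022, minus strand) was at 0.119 and 0.733 CPM in cMN7 at e10.5 and at 0.614 and 0.257 CPM at e11.5, the lowest mean of the nuclei at each age. It was at 2.97 and 1.32 CPM in cMN4 at e10.5, 2.63 and 1.8 CPM in cMN4 at e11.5, 1.06 and 2.43 CPM in cMN3 at e10.5 and 0.526 and 0.903 CPM in cMN3 at e11.5. Over both ages its difference between cMN3/4 and cMN7 was 1.85 ± 0.58 on the log2 scale and missed the threshold (edgeR adjusted p = 0.0682), while DESeq2 gave an adjusted p of 0.015, and edgeR called it without cMN3 e10.5 replicate A (1.97, adjusted p = 0.0441). *Fev* (ENSMUSG00000055197, chr1:74881509-74885419, minus strand), the ETS factor that defines serotonergic neurons, had 0 counts in the 6 libraries of e10.5, which allows up to 0.0333 CPM over them, and 0 in cMN3 at e11.5. It had 9 and 5 counts in cMN4 and 26 and 4 counts in cMN7 at e11.5, at most 1.06 CPM. *Slc6a4* (ENSMUSG00000020838, chr11:76998603-77032340, plus strand) had 2 counts at e10.5, both in cMN7 replicate B, and 49 counts over the 6 libraries of e11.5, at most 0.784 CPM in cMN4 replicate A. These bounds cover counting error only. The TPM ratio of *Tph2* to *Slc18a2* lay between 0.00107 and 0.0235 in cMN7 and between 0.0425 and 0.194 in the other nuclei, so at each age the nucleus with the highest mean of the transporter had the lowest mean of the serotonin enzyme.

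The genes that did go with *Slc18a2* in cMN7 were *Gata2* and *Gata3*, factors of serotonergic neurons that the ventral hindbrain also uses at the facial level. *Gata3* was at 241 and 209 CPM in cMN7 at e10.5 and 78.6 and 68.4 CPM at e11.5, against 0.264 to 3.02 CPM in cMN3 and cMN4. *Gata2* was at 238 and 172 CPM and then 44.8 and 29.3 CPM in cMN7, against 0 to 4.78 CPM in the others. *Gata3* was lower in cMN3/4 than in cMN7 (log2 fold change -8.56 ± 0.31 at e10.5 and -4.97 ± 0.25 at e11.5, edgeR adjusted p = 3.83e-08 and 4.16e-07). Of 16 serotonergic markers, 13 were tested, and 7 were lower and none higher in cMN3/4 at e10.5, where 6.16% of all genes were called lower. At e11.5, 5 were lower and 1 (*Foxa2*) higher, where 4.97% of all genes were called. The 7 include *Slc18a2* and *Htr1a* themselves. The summed level of the list was 839 to 948 CPM in cMN7 at e10.5, against 153 to 221 CPM in cMN3 and cMN4. At e11.5 it was 270 to 285 CPM against 106 to 155 CPM, and its part in the levels of *Slc18a2* and *Htr1a* was not tested. *Lmx1b*, which serotonergic neurons need, lay between 1.48 and 23.1 CPM and its difference between cMN3/4 and cMN7 was -0.62 ± 0.40 (edgeR adjusted p = 0.405) over both ages.

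Promoter sequences of 4 of these genes are shown because *Slc18a2* and *Htr1a* were both high where the GATA factors were, and *Fev* and *Tph2* were not. They are the bases just before the first annotated exon, 5′ to 3′ on the strand of the gene (RefSeq, GRCm38.p6), and capitals mark a match, on either strand, to GATA with A or T before it and A or G after it. *Slc18a2* (chr19:59260628-59260877, plus strand) holds 2 matches, on opposite strands, and *Htr1a* (chr13:105443443-105443638, plus strand) holds none. *Fev* (chr1:74885420-74885658, minus strand) and *Tph2* (chr10:115185023-115185272, minus strand) hold 1 each.
Slc18a2: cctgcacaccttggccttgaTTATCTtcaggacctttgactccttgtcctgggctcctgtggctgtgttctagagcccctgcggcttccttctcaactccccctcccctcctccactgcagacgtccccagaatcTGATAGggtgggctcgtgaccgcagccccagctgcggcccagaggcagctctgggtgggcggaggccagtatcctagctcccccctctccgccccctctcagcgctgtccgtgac
Htr1a: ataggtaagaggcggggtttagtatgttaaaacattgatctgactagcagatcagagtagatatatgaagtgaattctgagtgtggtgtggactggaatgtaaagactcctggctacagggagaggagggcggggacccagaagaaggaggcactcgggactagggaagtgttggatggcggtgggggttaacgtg
Fev: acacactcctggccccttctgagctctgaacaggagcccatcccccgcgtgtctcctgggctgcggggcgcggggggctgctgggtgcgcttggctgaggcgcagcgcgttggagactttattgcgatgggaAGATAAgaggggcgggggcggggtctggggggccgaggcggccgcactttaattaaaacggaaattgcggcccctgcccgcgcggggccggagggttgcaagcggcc
Tph2: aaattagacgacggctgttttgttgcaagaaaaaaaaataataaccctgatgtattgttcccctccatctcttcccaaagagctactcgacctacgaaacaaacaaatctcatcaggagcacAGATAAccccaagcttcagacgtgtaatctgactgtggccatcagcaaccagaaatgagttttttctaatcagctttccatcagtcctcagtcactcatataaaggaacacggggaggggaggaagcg
In the 250 bases before the start, 5 of the 9 members with an entry in the table held such a match (*Slc18a2*, *Fev*, *Tph2*, *Slc6a4* and *Maoa*), as did 26.5% of all 32851 promoters. A match is a description of letters and says nothing of binding. These letters did not separate the members that were high in cMN7 from those near 0.

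The noradrenaline transporter *Slc6a2* (ENSMUSG00000055368, chr8:92960079-93001667, plus strand) was seen mainly at e11.5. At e10.5 it had 0 counts in both cMN3 libraries, 9 and 7 counts in cMN4 and 2 and 0 counts in cMN7. At e11.5 it was at 0.225 and 0.769 CPM in cMN3, 5.76 and 6.25 CPM in cMN4 and 4.26 and 2.35 CPM in cMN7. The 3 nuclei did not overlap at e11.5. From summed counts, *Slc6a2* was at least 6.14-fold higher in cMN4 than in cMN3 at e10.5, taking 3 counts over the cMN3 libraries as the floor. The edgeR test called this difference (adjusted p = 0.0377), and lost it without any 1 of the cMN3 libraries of e10.5 or of the cMN4 libraries of either age (edgeR adjusted p from 0.056 to 0.114). Limma on TPM did not call it (adjusted p = 0.529 and 0.195). At e11.5 the log2 fold change of cMN3 against cMN4 was -3.57 ± 0.79 and missed the threshold (edgeR adjusted p = 0.0538). It passed with same-lettered replicates of e11.5 taken as pairs (-3.61, edgeR adjusted p = 0.0414), without either cMN3 library of e10.5 (-3.57 and -3.59, edgeR adjusted p = 0.0321 and 0.0305) and with DESeq2 (adjusted p = 0.000387). The increase from e10.5 to e11.5 passed the test (edgeR adjusted p = 0.000146) in every alternative run, and its fitted size is not given because a group was at 0. Within e11.5 the TPM ratio of *Slc6a2* to *Dbh* lay between 0.39 and 0.571 in cMN3, between 0.112 and 0.186 in cMN4 and between 0.0575 and 0.13 in cMN7, where the last pair of ranges overlap. The cMN3 ratios rested on few counts, 6 of *Slc6a2* and 4 of *Dbh* in replicate A and 23 and 24 in replicate B.

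*Maoa* (ENSMUSG00000025037, chrX:16619698-16687818, plus strand), the enzyme that breaks monoamines down, was found at 12.5 to 41.7 CPM in every library. At e10.5 it was at 15.3 and 17.3 CPM in cMN3, 22.3 and 21.6 CPM in cMN4 and 14.6 and 13.9 CPM in cMN7. At the later age the levels were 12.5 and 14.4 CPM in cMN3, 30.4 and 30 CPM in cMN4 and 41.7 and 28.9 CPM in cMN7. The cMN7 libraries moved from the lower end at e10.5 to the upper end at e11.5, and those of cMN3 stayed low. *Maoa* was lower in cMN3 than in cMN4 at e11.5 (log2 fold change -1.17 ± 0.20, edgeR adjusted p = 0.0114), a call lost without either cMN3 e11.5 library (-1.07 and -1.28, edgeR adjusted p = 0.198 and 0.082) or without cMN4 e11.5 replicate B (-1.18, edgeR adjusted p = 0.0613). It was lower in cMN3/4 than in cMN7 at e11.5 (-0.81 ± 0.17, edgeR adjusted p = 0.0151), which was lost without cMN3 replicate A (-0.76, edgeR adjusted p = 0.0721), without cMN7 replicate A (-0.52, edgeR adjusted p = 0.254) and with cMN4 alone (-0.22, edgeR adjusted p = 0.763). Limma on TPM and fits of e11.5 alone gave neither call (adjusted p from 0.0684 to 0.478). The change of that difference with age was -1.21 ± 0.25 (edgeR adjusted p = 0.0567), and it passed with same-lettered replicates of e11.5 taken as pairs (-1.20, edgeR adjusted p = 0.0234) and without cMN7 e11.5 replicate B (-1.45, edgeR adjusted p = 0.00679).

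**Figure D3:**
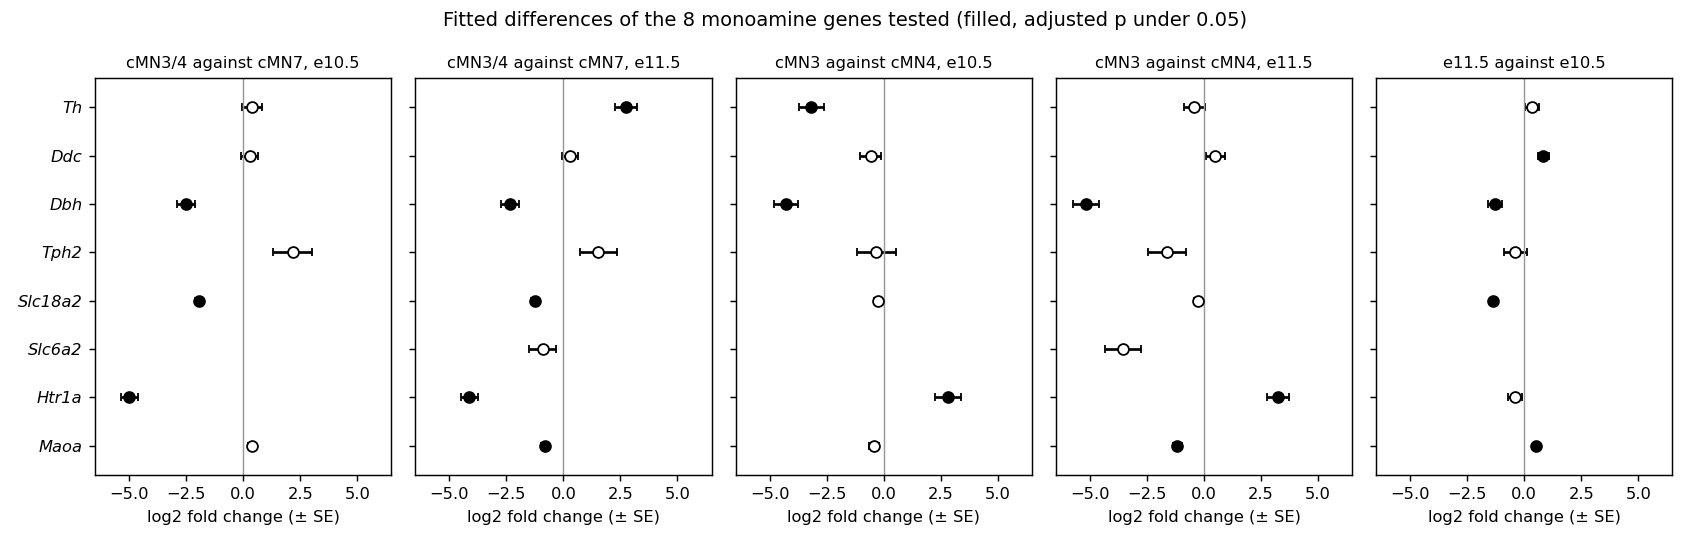
Fitted log2 fold changes (horizontal axis, ± SE) of the 8 tested genes in 5 comparisons, filled where the edgeR adjusted p was under 0.05; Slc6a2 is shown for the 2 comparisons of nuclei at e11.5. Htr1a is lowest against cMN7 (-4.99 and -4.13) and Dbh lowest in cMN3 against cMN4 (-4.28 and -5.17), while Ddc and Tph2 have open points in all 4 comparisons between nuclei.

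Counted over the 8 tested genes, 3 were lower and 5 did not pass in cMN3/4 against cMN7 at e10.5, where 6.16% of all genes tested were called lower. At e11.5 there were 4 lower and 1 higher (4.97% of all genes), and over both ages 4 were called (11.2%). Between cMN3 and cMN4, 3 were lower and 1 higher in cMN3 at e10.5 (7.95%), and 2 were lower and 1 higher at e11.5 (1.85%). From e10.5 to e11.5, *Ddc*, *Maoa* and *Slc6a2* were higher and *Dbh* and *Slc18a2* lower, which makes 5 of 8 where 49.8% of all genes were called. The values were -1.29 ± 0.30 for *Dbh* (edgeR adjusted p = 0.004, limma on log2(TPM + 0.1) 0.0507) and 0.50 ± 0.12 for *Maoa* (edgeR adjusted p = 0.0046). Medians over the 8 genes were 0.07 (cMN3/4 against cMN7, e10.5), -0.87 (the same, e11.5), -0.51 and -0.79 (cMN3 against cMN4, e10.5 and e11.5) and -0.03 (age) on the log2 scale, beside medians of all genes of -0.05, 0.01, -0.01, 0.02 and 0.04. Calls thus came in both directions in every comparison between nuclei but the first. For the change with age of the cMN3/4 difference from cMN7, edgeR called 0 of the 8 (3 at an unadjusted p under 0.05), where 0.755% of all genes were called. DESeq2 called 2 (*Th* and *Maoa*), as did either form of the replicate pairing, and limma on TPM called 0. For the change with age of the cMN3 difference from cMN4, edgeR called 0 (2 unadjusted), where 0.0999% of all genes were called, DESeq2 1 (*Th*) and limma on TPM 0. For *Th* this last value was 2.76 ± 0.71 (edgeR adjusted p = 0.156).

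As a description of how far the genes moved together, log2(CPM + 1) was centred within each age and compared over the 12 libraries. These points share the nuclei and replicates, so no p is given. Of the 28 pairs among the 8 genes that reached 1 CPM in at least 2 libraries, 2 had a Pearson r over 0.8, 3 others lay between 0.5 and 0.8, and 13 were below 0. The closest pairs were *Slc6a2* with *Maoa* (r = 0.89, Spearman rho = 0.86) and *Slc18a2* with *Htr1a* (r = 0.85, rho = 0.52). The 3 pairs between 0.5 and 0.8 all held *Dbh*: with *Slc6a2* (r = 0.72, rho = 0.63), with *Slc18a2* (r = 0.62, rho = 0.66) and with *Maoa* (r = 0.62, rho = 0.29). *Th* and *Dbh*, neighbours in 1 chain of synthesis, had r = 0.21 and rho = 0.13, *Th* and *Ddc* r = 0.46 and rho = 0.41, and *Tph2* and *Htr1a* r = -0.84 and rho = -0.76. *Slc18a2* and *Th* had r = -0.34 and rho = -0.10.

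**Figure D4:**
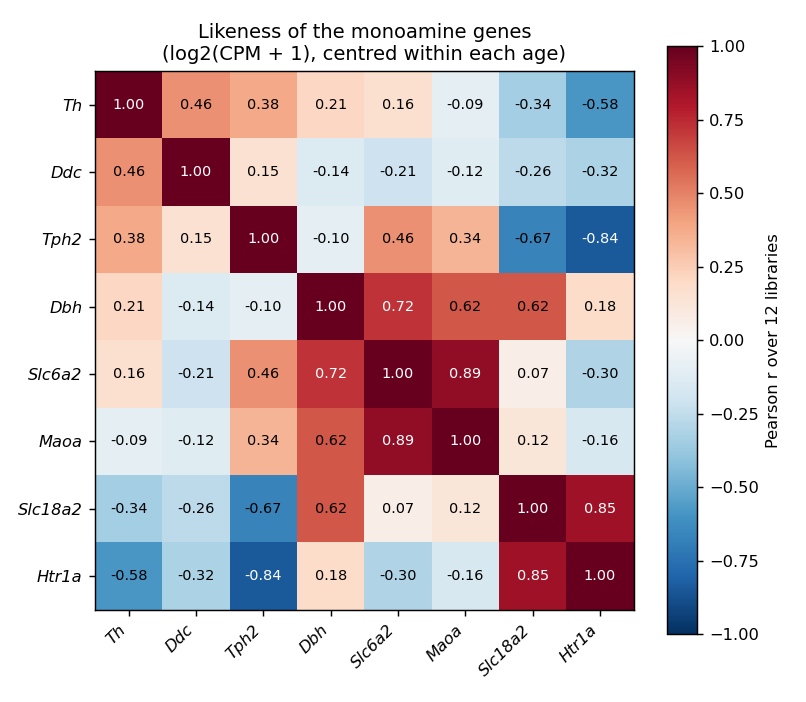
Pearson r between the 8 genes over the 12 libraries, from log2(CPM + 1) centred within each age (red positive, blue negative). The pairs over 0.8 are Slc6a2 with Maoa and Slc18a2 with Htr1a, while 13 of 28 pairs are below 0.

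The genes whose pattern was most like each member were sought among 12650 genes whose average log2 CPM reached 1. Those nearest *Slc18a2* were *Nrxn3*, *Cdh22*, *Chrm2*, *Gata3* and *Gpr149* (r from 0.985 down to 0.982). Those nearest *Htr1a* were *Phlpp1*, *Draxin*, *Slc37a1*, *Mapk10* and *Tle1* (0.985 to 0.977). Nearest *Dbh* were *Sfrp1*, *Rgs4*, *Rassf4*, *Epha4* and *Thsd7b* (0.973 to 0.945). Nearest *Th* were *Gm10409*, *Gm3020*, *Pnmal1*, *Ptpn9* and *Prelid3a* (0.938 to 0.92), of which the first pair carry placeholder names. Nearest *Slc6a2* were *Ppp1r17*, *Dusp10*, *Vip* and *Maoa* (0.922 to 0.893). *Tph2* was nearest to *Prmt5*, *Fam149a*, *Prokr2*, *Ola1* and *Rgs19* (0.921 to 0.893), *Maoa* to *Asap1*, *Eif3b*, *Cct3*, *Nebl* and *Gsn* (0.918 to 0.889) and *Ddc* to *Ap5b1*, *Cul9*, *Sppl2b*, *Hcn2* and *Slc4a3* (0.854 to 0.816).

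**Figure D5:**
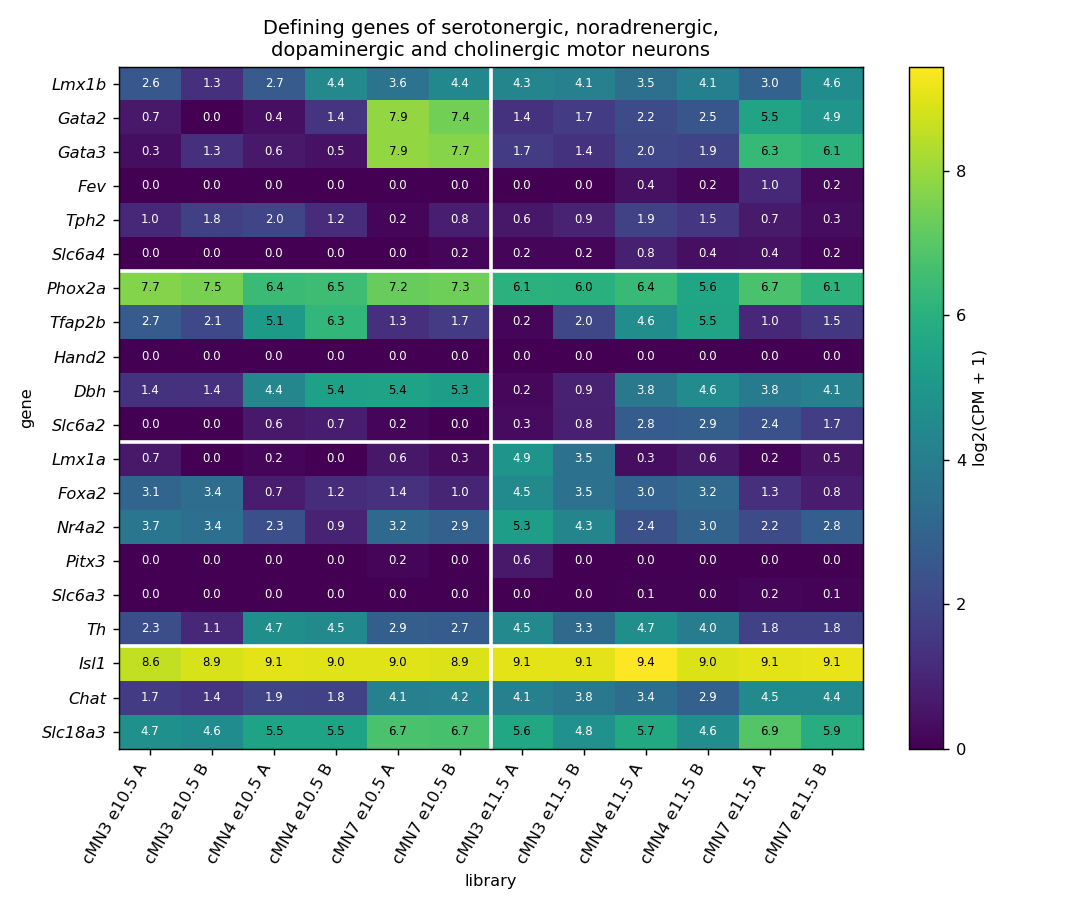
Level, as log2(CPM + 1), of defining genes (rows) in the 12 libraries (columns), in blocks of serotonergic, noradrenergic, dopaminergic and cholinergic motor neuron genes. Fev, Slc6a4, Hand2, Pitx3 and Slc6a3 are at or near 0 in every library, while Isl1 is high in all.

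For noradrenergic neurons, *Phox2a* lay between 46 and 203 CPM, and it is a motor neuron gene too. All 11 noradrenergic markers were tested. In cMN3 against cMN4, 4 were lower and 1 (*Phox2a*) higher at e10.5 and 3 lower at e11.5, where 7.95% and 1.85% of all genes were called, and the lower ones were *Dbh*, *Th*, *Slc6a2* and *Tfap2b*, then *Dbh*, *Maoa* and *Tfap2b*. For sympathetic neurons and chromaffin cells, *Hand2* had 0 counts in all 12 libraries, which allows up to 0.0115 CPM over them. Of the 11 genes of that list, 9 were tested, and 6 were lower and none higher in cMN3/4 than in cMN7 at e10.5 (6.16% of all genes lower). At e11.5, 5 were lower and 1 higher (4.97% of all genes called), and the list shares *Dbh*, *Th*, *Gata2* and *Gata3* with the lists above. *Pnmt*, which makes adrenaline, had 39 counts in cMN7 at e10.5 and 0 in cMN3 and cMN4, at least 22.3-fold higher. At e11.5 it had 26 counts in cMN7 and 2 in each of the other nuclei.

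Of the other genes of synthesis, transport and breakdown, 9 of 13 were tested. In cMN3/4 against cMN7 at e10.5, 3 were lower (*Pnmt*, *Hdc* and *Slc29a4*) and 1 higher (*Akr1b3*), where 2072 of 18022 genes were called. *Slc29a4*, a low-affinity monoamine transporter of the plasma membrane, lay between 39.5 and 158 CPM, above *Slc6a2*, *Slc6a4* and *Slc6a3* in every library on the CPM scale, which does not correct for length. It was lower in cMN3/4 at e10.5 (log2 fold change -0.61 ± 0.18, edgeR adjusted p = 0.0498). *Tph1*, the serotonin enzyme of other tissues, exceeded *Tph2* per length in cMN3 and cMN7 (TPM ratio 1.5 to 12.8) and was below it in cMN4 (0.33 to 0.757). It was higher in cMN3 than in cMN4 at e11.5 (2.66 ± 0.58, edgeR adjusted p = 0.0408). With age 5 of the 9 were higher, *Slc29a4* among them (0.78 ± 0.12, edgeR adjusted p = 0.000342), and 1 was lower, *Tph1* (-1.09 ± 0.32, edgeR adjusted p = 0.0153), where 49.8% of all genes were called. *Maob*, the partner of *Maoa*, lay between 0.306 and 1.96 CPM.

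Of the 7 genes for the cofactor tetrahydrobiopterin, which tyrosine and tryptophan hydroxylases need, 6 were tested. *Gch1*, its first enzyme, lay between 2.78 and 9.05 CPM, and the difference of cMN3/4 from cMN7 over both ages was 0.22 ± 0.25 (edgeR adjusted p = 0.674). *Qdpr*, which regenerates the cofactor, was higher at e11.5 (0.80 ± 0.10, edgeR adjusted p = 9.39e-05), as were *Pts* and *Pcbd1*, which makes 3 of 6 where 49.8% of all genes were called. Between nuclei, 1 of the 6 was called at e10.5 (*Pcbd1*, higher in cMN3/4, 1.07 ± 0.26, edgeR adjusted p = 0.0208), where 2072 of 18022 genes were called.

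Of the 27 other monoamine receptors, 18 were tested. *Adra2a*, an inhibitory receptor for noradrenaline, was at 8.39 and 5.48 CPM in cMN3, 0 and 0.0943 CPM in cMN4 and 12.6 and 14.8 CPM in cMN7 at e10.5, and at 9.58 and 5.48, 1.14 and 1.13, and 25.6 and 17.1 CPM at e11.5. It thus ranked the nuclei as *Htr1a* did, cMN7 over cMN3 over cMN4. *Drd2*, a dopamine receptor, ran the other way, at 22.4 and 13.8 CPM in cMN4, 7.76 and 3.91 CPM in cMN3 and 1.01 and 0.856 CPM in cMN7 at e10.5. It was lower in cMN3 than in cMN4 at both ages (log2 fold change -1.62 ± 0.41 and -2.56 ± 0.42, edgeR adjusted p = 0.0371 and 0.00752), and higher in cMN3/4 than in cMN7 (3.46 ± 0.45 and 1.88 ± 0.38, edgeR adjusted p = 0.000457 and 0.0128). In cMN3/4 against cMN7, 2 of the 18 receptors were higher and 2 lower at e10.5, where 2072 of 18022 genes were called. At e11.5, 1 was higher and 1 lower (4.97% of all genes), and over both ages 4 were higher and 5 lower (11.2% of all genes).

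The cholinergic genes were set beside the vesicular monoamine transporter last. *Chat* was lower in cMN3/4 than in cMN7 (log2 fold change -2.88 ± 0.24 at e10.5 and -0.98 ± 0.23 at e11.5, edgeR adjusted p = 1.6e-05 and 0.0266), as was *Slc18a3* at e10.5 (-1.66 ± 0.33, edgeR adjusted p = 0.00751). Per length, *Slc18a2* stood at 0.904 to 1 times the level of *Slc18a3* in cMN7 at e10.5, 0.828 to 1.09 times in cMN3 and 0.599 to 0.661 times in cMN4. At e11.5 the ratio was 0.198 to 0.564 over the 3 nuclei. The monoamine and acetylcholine vesicle transporters were therefore at like levels in cMN3 and cMN7 at e10.5, and the acetylcholine transporter was the higher of the pair in all libraries of e11.5.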

How the data were processed

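Bulk RNA-seq of 12 libraries (6 groups of 2) was analysed, and cMN6 was not analysed here. Reads were aligned by the authors with STAR to Ensembl GRCm38, and the deposited expected counts per gene were estimated by the authors with RSEM, not normalized. TPM, also deposited, is the same estimate divided by transcript length and rescaled per library. Members and gene lists were chosen with earlier results of these data known.

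Expected counts were rounded and filtered (10 counts at the median library size in 2 libraries, 15 in total), leaving 18022 of 49671 genes. After TMM scaling, edgeR 4.0.16 quasi-likelihood tests on 6 groups (6 residual degrees of freedom, common dispersion 0.0731) were adjusted by Benjamini-Hochberg at 0.05 over all genes tested. The SE is the log2 fold change divided by the root of F. Depth was 13991802 to 30536210 counts per library. DESeq2 1.42.0 and limma 3.58.1 on log2(TPM + 1 or + 0.1) were alternatives (R 4.3.3, Python 3.11.15). The code was tested on simulated counts. Bounds take 3 counts as the floor. Positions are from GENCODE of GRCm38.

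Same-lettered replicates deviated together at e11.5 (r = 0.63, 0.53 and 0.51 between nuclei over 9911 genes) and not at e10.5 (0.03, -0.02 and 0.12), so they were treated as pairs at e11.5 in an alternative fit. The pairing comes from the data, and the labels say only that the letters number replicates. Genes named are the 10 members, defining markers of cell types, at most 4 members per list and comparison by smallest p, and the 5 genes likest to each member. A few genes that this rule names are not reported here.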

Additional observations from a re-analysis of the deposited data

How the results depend on the processing

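Of 29 single-gene values, set against 597 values under alternatives, 532 kept their direction and side of the threshold, 38 lost the call, 26 gained it and 1 reversed, *Dbh* in cMN3/4 against cMN7 at e11.5 (0.24 with cMN4 alone). Of the counts of members called, cMN3/4 against cMN7 at e11.5 fell from 5 to 3 with cMN4 alone, cMN3 against cMN4 at e10.5 from 4 to 2 with limma on log2(TPM + 1) or log2(TPM + 0.1), and at e11.5 from 3 to 1 with log2(TPM + 0.1). The interaction of cMN3/4 against cMN7 with age rose from 0 to 2 with DESeq2, with no filter on low counts, with cMN3 alone and with a replicate block, within each age or at e11.5 alone. That of cMN3 against cMN4 rose from 0 to 1 with DESeq2, no filter or the replicate block within each age. Either form of the replicate block also gave the call of *Slc6a2* in cMN3 against cMN4 at e11.5 (3 members to 4), and changed no other call among the 29 values. The cause of these changes was not tested.

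Leaving out 1 library gave 3 to 5 members for cMN3/4 against cMN7 over both ages, 3 to 3 at e10.5 and, for e11.5, 3 to 5. It gave 2 to 4 for cMN3 against cMN4 at e10.5, 1 to 4 at e11.5, 4 to 6 for age, 0 to 2 for the first interaction and 0 to 0 for the second. The group left with 1 library was assumed to vary like the others. Over all genes, calls ranged from 1188 to 2802 over both ages (2023 in the main test), 663 to 2916 at e10.5 (2072), 449 to 1772 at e11.5 (896), 597 to 2455 and 82 to 931 for cMN3 against cMN4 (1432 and 334), 7356 to 9730 for age (8971), and 16 to 1562 and 3 to 673 for the interactions (136 and 18). Limma on log2(TPM + 1) moved the median of all genes to -0.38 for cMN3/4 against cMN7 at e10.5 and to 0.33 for age, and the share of calls that were higher to 12.1% (46.4% in the main test) and 76.5% (53.5%).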
